A study of Mus musculus with 20 samples.

Results

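The genes described here are the TNF superfamily ligands and receptors, taken as every protein-coding gene of the mm10 gene table whose symbol begins with Tnfsf or Tnfrsf. There were 32 such genes among 21887, of which 12 were ligand genes and 20 were receptor genes. A p65 or SOCS1 peak was given to a gene where its centre lay within 10 kb of the gene span. Overlapping windows joined Tnfsf12, Tnfsf13 and their readthrough transcript Tnfsfm13, then Tnfrsf22, Tnfrsf23 and Tnfrsf26, and also Tnfrsf4 and Tnfrsf18, so the 32 genes lay at 27 loci. Genes of 1 locus can share a peak and are not independent counts.

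The study mapped p65 (RELA, the activating NF-κB subunit) and SOCS1 (a feedback inhibitor of cytokine signalling) on chromatin by CUT&RUN, a method in which an antibody directs a nuclease to cut DNA where its target is bound. The cells were mouse bone-marrow-derived macrophages, grown from bone marrow with the growth factor M-CSF and fixed briefly with formaldehyde. WT and KO cells were each studied without treatment, called control here, and after LPS (lipopolysaccharide, which macrophages sense through TLR4) at 100 ng/mL for 30 min or 8 h. Each antibody, genotype and treatment had 1 library, which gives 12 peak lists. By the design text the KO cells are NOS1 KO and the wild-type strain is C65BL6. The series title names SOCS1 instead, and which gene was disrupted was not settled here. The labels give no other allele or agent. Neither the sex and age of the mice nor the number pooled is given in the sources used here. The lists hold binding sites and not expression, so the macrophage label could not be checked against marker genes.

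Ligands of this superfamily are mostly trimeric membrane or secreted proteins, and their receptors pass the signal on through TRAF adaptors to NF-κB and kinases or, for the death receptors, to caspases. Macrophages use several of the ligands to costimulate T cells and to support B cells. Several genes of the family are known NF-κB targets, and p65 is the NF-κB subunit most used to follow its action on chromatin.

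With 1 library per group there was no replicate and no test between groups, and the exact 95% intervals given with shares and tag counts cover counting error only. Depth was 7.69 M to 18.4 M tags (M for mega) for p65 and 6.93 M to 9.74 M for SOCS1, and the lowest score a peak could have was 7 to 12 unscaled tags. A site missing from a list is therefore not shown to be unbound. The 2 KO control lists stood apart: 91.4% of their p65 peaks and 88.0% of their SOCS1 peaks sat over IgG at its floor of 0.5 tags, against 14.7% to 43.0% in the other 10 lists. At the 32 genes these shares were 88.9% and 79.6%. The part of this in the KO control values was not tested. Tag counts below are the authors' tags in a peak scaled to a library of 10000000 tags (10 M), called "tags" for short. Peaks were 222 to 493 bp wide depending on the list, so values of different lists stand side by side without a test.

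Promoter sequences are printed for 6 starts that peaks of both antibodies overlapped, chosen for the lists that held them and for their motif matches. RefSeq (GRCm38.p6, the assembly of mm10) gave 29 promoters for 25 of the 32 genes, and the 250 bases before each start were searched on both strands for the NF-κB consensus and for TTCNNNGAA (a STAT-type palindrome) and an IRF-type repeat (GAAA, any pair of bases, GAAA). Peaks of any list overlapped 14 of the 29 windows, p65 peaks 12 and SOCS1 peaks 10. The same share over all promoters is not given here, so these counts are a description only. Each sequence reads 5′ to 3′ on the gene's strand and ends at the base before the start, and capitals mark motif matches. The window of Tnfrsf23 (chr7:143685876-143686125, minus strand) was overlapped in 10 of 12 lists and that of Tnfsf13 (chr11:69685555-69685804, minus strand) in 6. Tnfrsf14 (chr4:154928078-154928327, minus strand) was overlapped by 1 p65 list and 5 SOCS1 lists, Tnfrsf1a (chr6:125349473-125349722, plus strand) by 2 p65 lists and 1 SOCS1 list, and Tnfsf10 (chr3:27316827-27317076, plus strand) by 2 p65 lists and 1 SOCS1 list. The downstream start of Tnfrsf9 (chr4:150927749-150927998, plus strand) was overlapped by 3 p65 lists and 1 SOCS1 list.
Tnfrsf23: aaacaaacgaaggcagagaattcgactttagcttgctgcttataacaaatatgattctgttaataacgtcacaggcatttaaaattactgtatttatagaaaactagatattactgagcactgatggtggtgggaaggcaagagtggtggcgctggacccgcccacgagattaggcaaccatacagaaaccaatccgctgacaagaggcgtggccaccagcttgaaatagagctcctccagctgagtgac
Tnfsf13: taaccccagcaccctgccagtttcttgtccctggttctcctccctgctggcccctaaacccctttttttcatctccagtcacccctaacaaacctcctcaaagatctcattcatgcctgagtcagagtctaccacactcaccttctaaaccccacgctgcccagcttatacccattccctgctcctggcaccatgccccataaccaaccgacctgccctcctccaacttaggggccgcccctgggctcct
Tnfrsf14: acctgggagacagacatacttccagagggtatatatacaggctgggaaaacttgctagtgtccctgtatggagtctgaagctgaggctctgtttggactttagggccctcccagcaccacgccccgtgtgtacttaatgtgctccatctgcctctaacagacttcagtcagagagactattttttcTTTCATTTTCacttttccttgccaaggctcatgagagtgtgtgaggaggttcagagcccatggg
Tnfrsf1a: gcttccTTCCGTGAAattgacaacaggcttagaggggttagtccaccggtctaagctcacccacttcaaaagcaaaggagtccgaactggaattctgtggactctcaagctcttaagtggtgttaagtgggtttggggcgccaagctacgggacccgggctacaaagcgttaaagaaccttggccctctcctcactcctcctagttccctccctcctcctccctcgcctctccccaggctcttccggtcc
Tnfsf10: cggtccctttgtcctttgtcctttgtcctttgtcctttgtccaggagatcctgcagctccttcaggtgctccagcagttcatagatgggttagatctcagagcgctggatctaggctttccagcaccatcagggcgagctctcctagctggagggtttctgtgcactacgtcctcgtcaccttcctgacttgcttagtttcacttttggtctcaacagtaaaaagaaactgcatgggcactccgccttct
Tnfrsf9, downstream start: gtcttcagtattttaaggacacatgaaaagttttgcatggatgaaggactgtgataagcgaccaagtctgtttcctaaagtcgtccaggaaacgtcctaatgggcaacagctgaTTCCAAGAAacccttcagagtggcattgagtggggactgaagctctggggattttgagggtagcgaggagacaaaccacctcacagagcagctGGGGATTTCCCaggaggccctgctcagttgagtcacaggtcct

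The NF-κB consensus was present in 4.18% of the 21263 promoters in the table and in 2 of the 29 promoters of the family, those of Tnfrsf8 and of the downstream Tnfrsf9 start. In Tnfrsf9 the capitals nearer the end of the sequence are a pair of overlapping matches that begin 43 and 42 bases before the start, and no peak of the 12 lists covered them. The Tnfrsf8 match, 168 bases before the start, was not covered either. TTCNNNGAA was present in 6.58% of all promoters and in 5 of the 29, and the IRF-type repeat in 2.96% and in 4 of the 29. The TTCNNNGAA match of Tnfrsf1a, 244 bases before the start, was covered by the p65 peaks of both genotypes at 30 min and by SOCS1 in KO control cells. The IRF-type match of Tnfrsf14, 64 bases before the start and read on the opposite strand, was covered by 1 p65 list and 3 SOCS1 lists. No match of 1 motif overlapped a match of another in the 29 promoters. Tnfrsf23, Tnfsf13 and Tnfsf10, shown above without capitals, had none of the 3 motifs in this window, which says nothing of sites elsewhere.

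In p65 lists, peaks lay near 17 of the 32 genes in WT control cells (53.1%, interval 34.7 to 70.9%), against 32.7% of all genes. After 30 min of LPS the count was 26 (81.2%, 63.6 to 92.8%) against 61.9% of all genes, and after 8 h it was 23 (71.9%) against 55.9%. In KO cells p65 peaks lay near 21 of the genes before treatment (all genes 35.8%), 28 after 30 min (65.4%) and 22 after 8 h (55.5%). The share of the family was above that of all genes in each of the 6 p65 lists, and the interval lay wholly above the background in the control lists of both genotypes and in both 30 min lists. With overlapping windows counted once, the WT control share was 13 of 27 loci (28.7 to 68.1%) and its interval then included the background, and the WT 30 min share was 22 of 27 with a lower limit of 61.9%, the background itself. The KO control and KO 30 min intervals stayed above their backgrounds at 17 of 27 (42.4 to 80.6%) and 24 of 27 (70.8 to 97.6%). The genes of the family were of ordinary size, with a median span of 18550 bp against 17169 bp for all genes. The larger counts after LPS went with longer lists: in the strongest 9438 peaks of each list the WT p65 count was 17 at 30 min (all genes 28.2%) and 10 at 8 h (25.3%), and the KO count was 15 (27.1%) and 14 (28.8%). Of these, the 30 min intervals lay above the background in WT (34.7 to 70.9%) and KO cells (29.1 to 65.3%), and both 8 h intervals included it. Where peaks needed 8-fold in place of 4-fold enrichment over the local background, 8 genes kept a p65 peak in WT control cells (11.5 to 43.4%, all genes 20.0%), 10 at 8 h in WT (45.6%) and 8 at 8 h in KO cells (32.6%). The WT 30 min count was then 22 (50.0 to 83.9%, all genes 51.4%), so both WT calls were lost at this setting. The KO control and KO 30 min intervals remained above their backgrounds, with 15 (29.1 to 65.3%, all genes 25.0%) and 26 (63.6 to 92.8%, 57.4%). The WT 30 min call was also lost in a 2 kb window, with 23 (53.3 to 86.3%, all genes 53.6%). In that window the 8 h intervals lay above the background, 50.0 to 83.9% in WT cells (all genes 47.6%) and 46.8 to 81.4% in KO cells (45.6%).

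In SOCS1 lists the WT counts were 17 before treatment (all genes 32.4%), 19 after 30 min (47.7%) and 16 after 8 h (38.6%). In KO cells they were 22 before treatment (55.3%), 22 after 30 min (51.0%) and 18 after 8 h (44.6%). Of these 6 shares the WT control one, 53.1% (34.7 to 70.9%), had an interval wholly above its background, and the other 5 intervals reached it. That WT control call was lost with overlapping windows counted once, 13 of 27 loci (28.7 to 68.1%), and at the stricter local enrichment, where 10 genes kept a SOCS1 peak (16.1 to 50.0%, all genes 24.8%). That enrichment left 9 genes at 8 h in WT cells (28.8%), and the strongest 9438 peaks left 8 at 8 h in WT cells (30.1%).

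**Figure D1:**
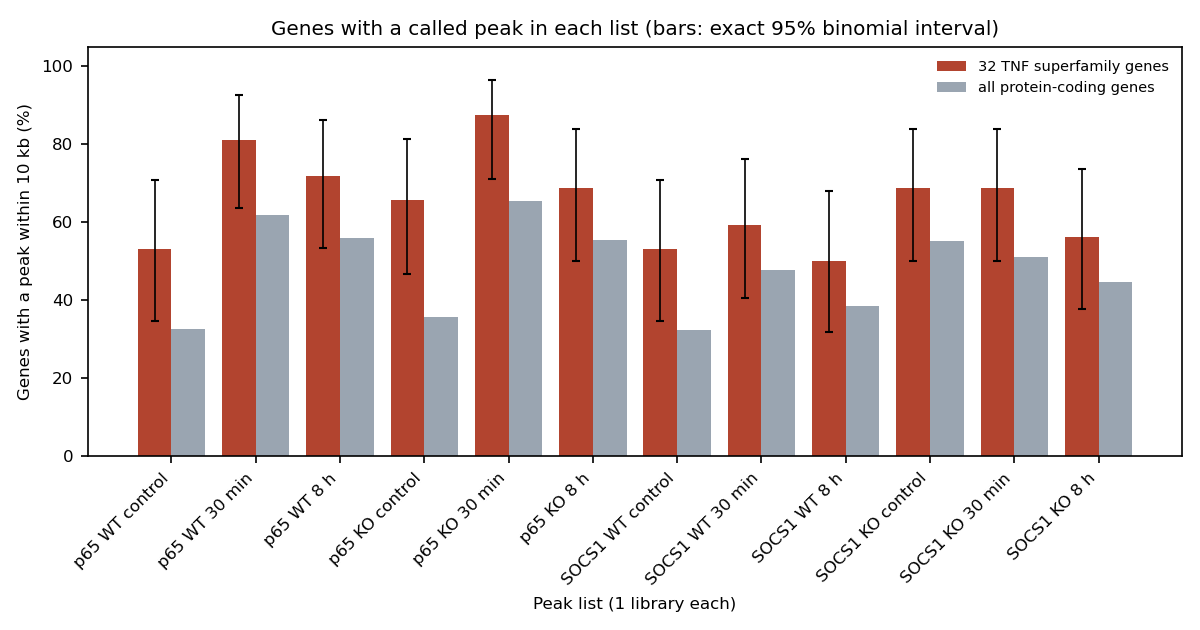
Percent of the 32 TNF superfamily genes (red, with exact 95% binomial intervals for counting error) and of all 21887 protein-coding genes (grey) with a called peak within 10 kb, in each of the 12 peak lists of 1 library each. The red bar is above the grey one in every list, from 50.0% against 38.6% for SOCS1 in WT cells at 8 h to 87.5% against 65.4% for p65 in KO cells at 30 min.

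The WT p65 lists covered 6 of 12 ligands before treatment, 10 after 30 min and 11 after 8 h of LPS, and the KO lists 8, 11 and 10. Of the ligands only Tnfsf11 had no peak in any list, the gene of RANKL, which drives osteoclast formation. The receptors gave 11, 16 and 12 of 20 in WT cells and 13, 17 and 12 in KO cells, against the same shares of all genes. Tnfrsf11b (osteoprotegerin, the decoy receptor of RANKL) and Tnfrsf4 (OX40, a T cell costimulatory receptor) had no peak in any list. Having no peak in all 12 lists was true of these 3 of 32 genes and of 24.5% of all genes, while 7 of the 32 and 10.7% of all genes had a peak in each list.

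Tnfsf9, which encodes the ligand of the T cell receptor CD137, held the largest p65 value of the family. Its strongest p65 peak had 24.7 tags in WT control cells, 162.9 at 30 min (exact Poisson interval 142 to 186) and 68.9 at 8 h. In KO cells the values were 24.5, 189.1 (170 to 210) and 84.1. SOCS1 gave no peak in WT control cells, then 64.7 tags after 30 min and 29.4 after 8 h, and 24.8, 119.7 and 52.1 in KO cells. All 4 combinations of antibody and genotype were thus highest at 30 min and lower at 8 h. With 8-fold local enrichment no p65 peak was left in KO cells at 8 h, and the SOCS1 value in KO cells at 30 min was 80.7 tags. The peaks formed 4 recurrent sites, all outside the gene span (chr17:57105287-57107758), whose start is not in the promoter table. The most often called was chr17:57112382-57113578, in 11 lists, followed by chr17:57096254-57096844 and chr17:57104567-57105148 in 10 each and chr17:57098043-57098674 in 8. At chr17:57098043-57098674, the site with the 189.1 tags, p65 was called only after LPS, with 162.9, 58.1 and 68.2 in the other 3 LPS lists. The site next to the gene, chr17:57104567-57105148, was called by p65 in each of the 6 lists, with 16.3 tags in WT control cells, 144.5 after 30 min and 29.7 after 8 h, and 24.5, 109.0 and 84.1 in KO cells.

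**Figure D2:**
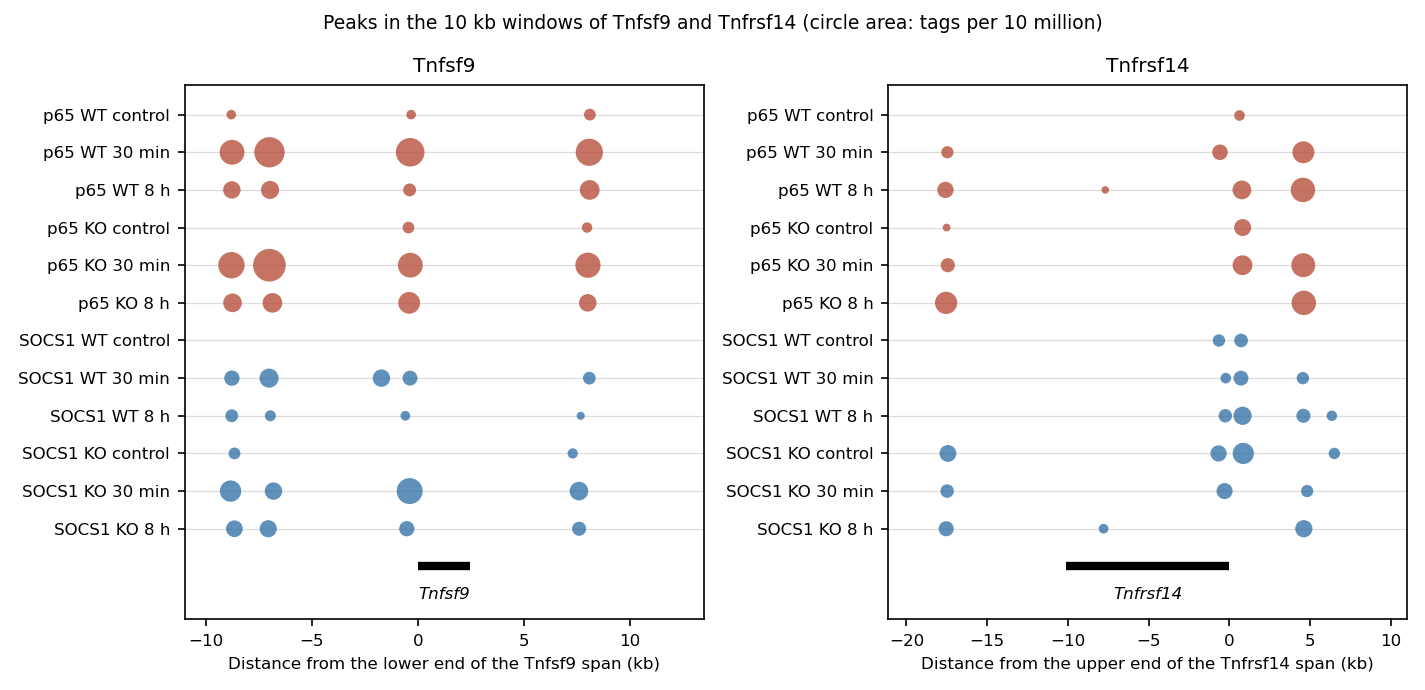
Called peaks within 10 kb of Tnfsf9 (left) and Tnfrsf14 (right) by list, p65 in red and SOCS1 in blue, at their distance in kb from 1 end of the gene span, the area of a circle being proportional to tags per 10 M. Tnfsf9 shows 4 columns of sites outside the gene that are largest at 30 min (up to 189.1 tags), and Tnfrsf14 a site about 5 kb upstream called by p65 after LPS alone (85.2 to 106.2 tags).

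Tnfsf18, the gene of the GITR ligand, which costimulates T cells, also had p65 peaks in each list. Its p65 values, in the order control, 30 min and 8 h, were 32.5, 122.4 and 154.9 tags in WT cells and 31.9, 145.4 and 101.8 in KO cells. With SOCS1 it had 18.8 and 45.7 tags in WT control and 30 min cells and no peak at 8 h, against 127.9, 80.2 and 33.5 in KO cells. The WT p65 order ran upward to 8 h, whereas the KO order peaked at 30 min, a difference that was not tested. The main site, chr1:161500353-161500960, lies inside the gene about 6 kb past the start (5999 bp) and was called in 7 lists. The WT control p65 peak, the WT SOCS1 peaks and the strongest KO SOCS1 peaks after LPS lay at other sites. At the main site SOCS1 had 61.5 tags in KO cells at 30 min and no peak at 8 h. With 8-fold local enrichment the KO 8 h p65 value came from a weaker site of 38.6 tags, and no peak was left in the WT control lists of both antibodies or for SOCS1 in KO cells at 8 h.

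Tnfsf4, the OX40 ligand gene, had no p65 peak in either control list, then 69.8 and 35.9 tags at 30 min and 8 h in WT cells and 81.9 and 63.6 in KO cells. SOCS1 gave a peak only in KO cells, 32.9 tags in control and 18.7 at 30 min. These p65 values came from 1 site that spans the lower end of the gene, chr1:161395003-161395686, at which SOCS1 was called in KO control cells. Neither the KO 8 h p65 peak nor the KO 30 min SOCS1 peak was left with 8-fold local enrichment. As reported, Tnfsf4 was thus a gene with p65 in all 4 LPS lists and without any overlap of p65 and SOCS1 in 1 condition.

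At Tnfsf12 (TWEAK), Tnfsf13 (APRIL, a survival factor of plasma cells) and Tnfsfm13 the strongest peak had the same value for all 3 genes in each list. It held 22.1, 55.9 and 26.0 p65 tags in WT cells and 26.7, 81.1 and 65.5 in KO cells, and 19.5, 24.1 and 12.1 SOCS1 tags in WT against 67.7, 49.4 and 40.5 in KO cells. The LPS p65 peaks and the KO LPS SOCS1 peaks lay at the Tnfsf13 start (chr11:69685258-69686096), which p65 was called at in the 4 LPS lists and in neither control list. In 3 of those 4 lists, all but KO at 30 min, the p65 peak overlapped the promoter printed above. The KO control p65 peak lay at another site, chr11:69692257-69692991, inside Tnfsf12, at which p65 was also called in KO cells at 30 min. The WT control list had a pair of p65 peaks of 22.1 tags, 1 at that site and 1 at chr11:69695481-69695839. These genes had, with 8-fold local enrichment, no p65 peak left in either control or 8 h list, and no SOCS1 peak in WT control, WT 8 h and KO control cells. Some peaks of this window lay nearer to other genes, such as 1 site 284 bp before the start of Eif4a1.

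The other ligands had lower values. Tnfsf15 (TL1A, the ligand of the receptor Tnfrsf25) had p65 in 5 lists, 28.4 to 62.7 tags, at a site 539 bp before its start (chr4:63745349-63745847), and was absent from the WT control list. Tnfsf14 (LIGHT, a ligand of Tnfrsf14) had p65 in 4 lists, 18.2 to 51.8 tags, and SOCS1 in 4, 13.7 to 41.0. Tnfsf8, the CD30 ligand gene, had p65 in 6 lists over a narrow range of 22.2 to 41.5 tags, with the highest value in KO control cells. For Tnfsf13b (BAFF, the B cell survival factor) p65 peaks appeared in the 4 LPS lists alone, 11.8 to 32.3 tags, and they overlapped 1 site 186 bp past a start. Tnfsf10 (TRAIL, a death ligand) had p65 in 3 LPS lists, 26.0 tags at 8 h in WT cells and 20.9 and 20.5 at 30 min and 8 h in KO cells. It was the single gene of the family whose WT p65 peak was called at 8 h and not at 30 min (1 of 6, all genes 9.23%; none of 4 in KO cells, 6.41%), and its SOCS1 peak of 16.3 tags was likewise in the WT 8 h list.

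**Figure D3:**
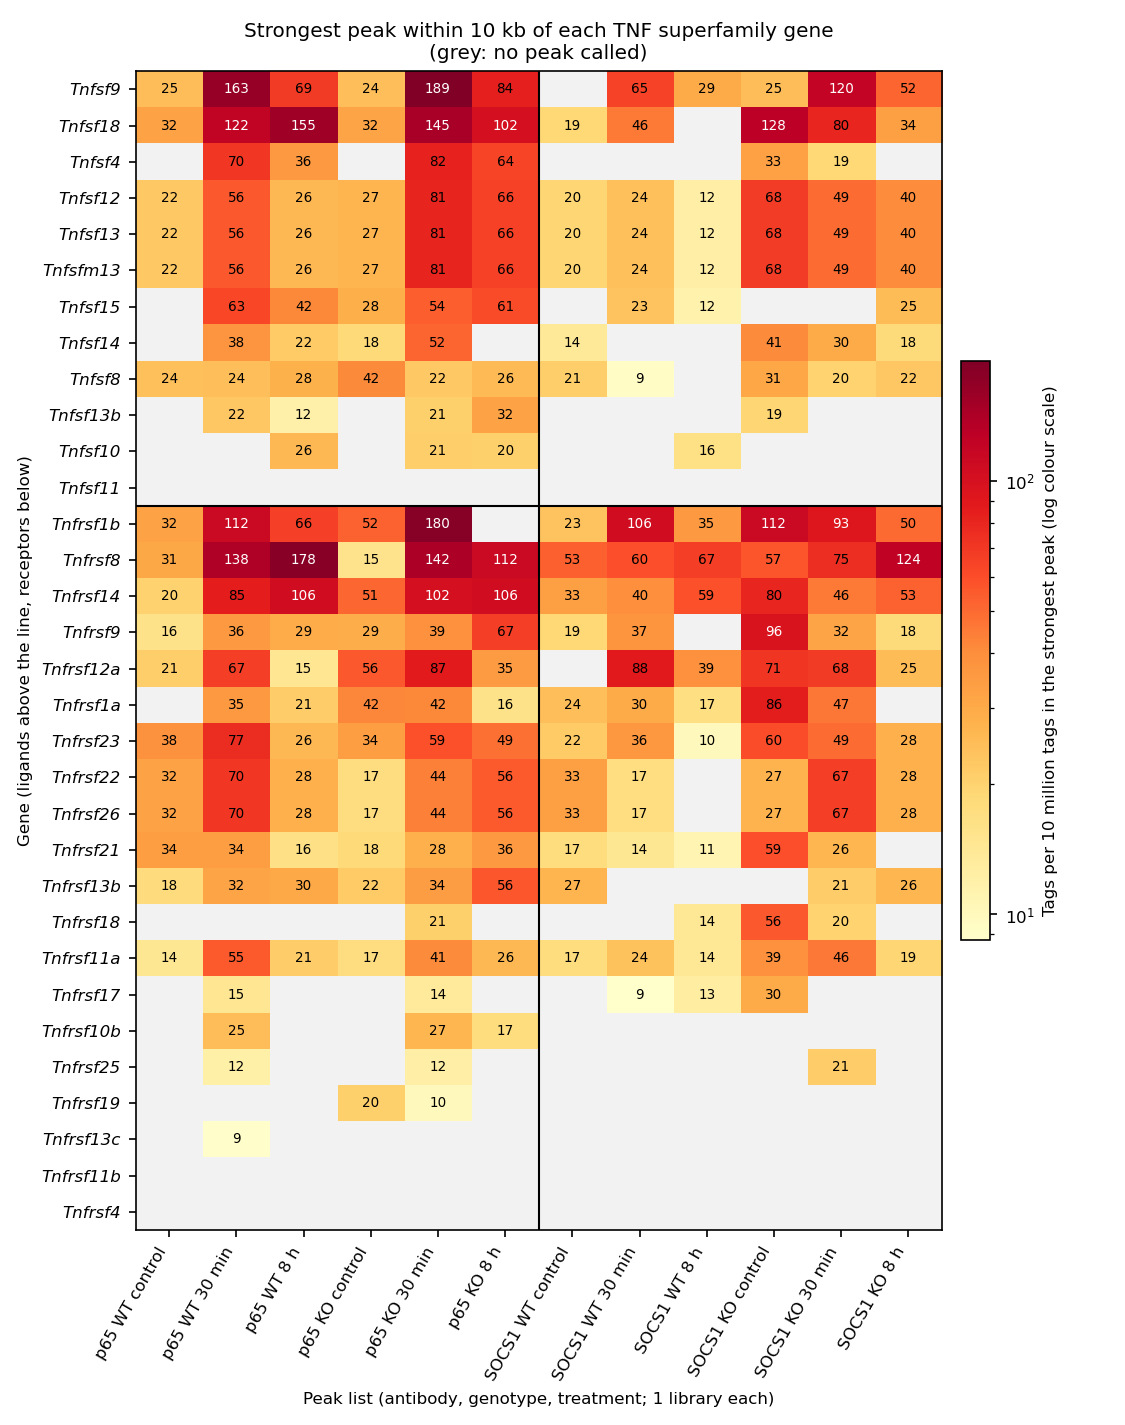
Tags per 10 M in the strongest peak within 10 kb of each of the 32 genes (rows, ligands above the line and receptors below) in the 12 lists (columns, p65 left and SOCS1 right), on a log colour scale with grey where no peak was called. Tnfsf9, Tnfrsf1b, Tnfrsf8 and Tnfsf18 reach 154.9 to 189.1 tags with p65, and Tnfsf11, Tnfrsf11b and Tnfrsf4 are grey throughout.

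The receptor genes Tnfrsf1b and Tnfrsf8 are neighbours on chromosome 4, both on the minus strand, and hold the highest p65 values of the family after Tnfsf9. Tnfrsf1b encodes TNF receptor 2, which lacks a death domain, and Tnfrsf8 encodes CD30, known from activated lymphocytes. Tnfrsf1b had 32.5, 111.8 and 66.1 p65 tags in WT cells, in the same order, and 52.3 and 180.1 (161 to 201) in KO control and 30 min cells, with no p65 peak in the KO 8 h list. SOCS1 was called there in each list, with 23.1, 105.7 and 35.2 tags in WT cells and 112.4, 92.8 and 50.2 in KO cells. The number of p65 peaks at Tnfrsf1b was 3, 4 and 3 in WT cells and 2, 4 and 0 in KO cells, and of SOCS1 peaks 2, 7 and 4 in WT cells and 7, 2 and 1 in KO cells. Its strongest site, chr4:145240806-145241532, lies inside the gene 5701 bp past the start and had 4 p65 lists and 3 SOCS1 lists. The p65 values other than WT control came from this site. Within each genotype the SOCS1 values came from a different site in each list, those of WT 30 min and KO control cells from the strongest site. The SOCS1 values are therefore not a time course of 1 site. With 8-fold local enrichment no p65 peak was left at Tnfrsf1b in WT cells at 30 min or 8 h, and no SOCS1 peak at 8 h in either genotype.

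Tnfrsf8 had a peak in all 12 lists, with 30.6, 138.5 and 177.5 p65 tags (153 to 205 for the last) in WT cells and 15.4, 141.6 and 112.3 in KO cells. Its SOCS1 values were 53.4, 59.5 and 66.8 in WT cells and 57.1, 75.2 and 123.5 in KO cells. By the strongest peak of each list, both WT series and the KO SOCS1 series were thus highest at 8 h. The leading site, chr4:145257691-145258666, was called in 10 lists and lies between the genes. The nearest start in the promoter table is that of Tnfrsf1b, 11308 bp away, against 56986 bp for the Tnfrsf8 start, and the site falls just outside the Tnfrsf1b window. All WT p65 values came from this site, as did the SOCS1 values in WT cells at 8 h and in KO cells after LPS. The other SOCS1 values came from chr4:145267502-145268411, and the KO p65 values from a different site in each list. The order over time differed between sites. From 30 min to 8 h, WT p65 went from 107.7 to 52.4 tags at chr4:145282902-145284008 and from 82.2 to 89.7 at chr4:145267502-145268411. Where 8-fold enrichment over the surrounding 10 kb was required, the strongest remaining Tnfrsf8 peak was 12.7 tags for p65 in WT cells at 8 h and 12.2 for SOCS1 in KO cells at 8 h, and no p65 peak was left in KO cells at 8 h. The same setting left 36.3 tags for SOCS1 in WT cells at 8 h and 38.4 in KO cells at 30 min. The 8 h values of Tnfrsf8 thus rest on peaks with 4-fold to 8-fold local enrichment.

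The WT p65 list had 3 peaks at Tnfrsf1b and 5 at Tnfrsf8, and the KO list had none and 3. The KO p65 peaks all lay inside Tnfrsf8, from chr4:145282902-145284008 (112.3 tags) onward, and the 177.5-tag WT site between the genes had no KO p65 peak at 8 h while the KO SOCS1 list had 123.5 tags there. Lacking a p65 peak in KO cells at 8 h while having one in WT cells was true of 2 of 23 genes of the family, Tnfrsf1b and Tnfsf14, against 11.7% of all genes with a WT peak. That is 8.70% (1.07 to 28.0%), and the difference at Tnfrsf1b rests on 1 library per genotype. It ends with 8-fold local enrichment, where neither genotype had a p65 peak at Tnfrsf1b at 8 h.

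**Figure D4:**
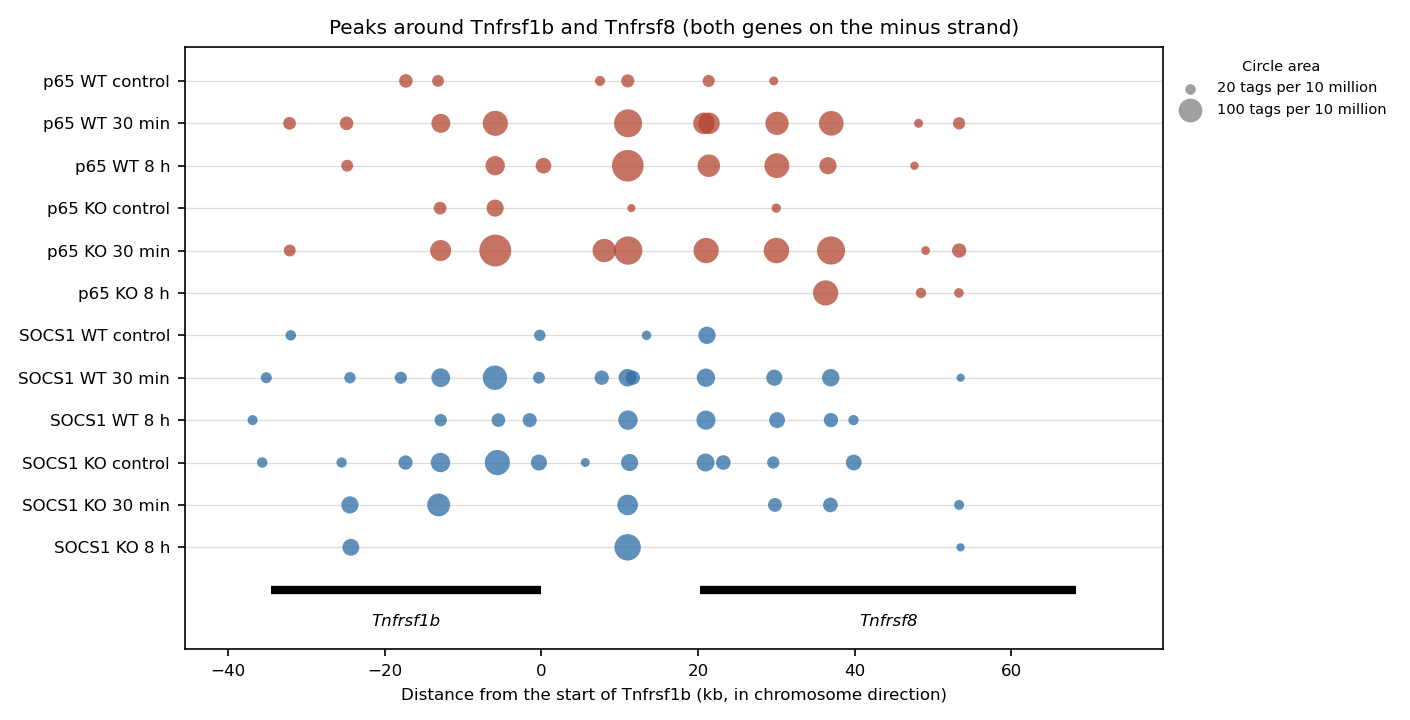
Called p65 (red) and SOCS1 (blue) peaks around Tnfrsf1b and Tnfrsf8 by list, at their distance in kb from the Tnfrsf1b start in chromosome direction, the area of a circle being proportional to tags per 10 M and the black bars being the gene spans. The KO 8 h p65 row holds only 3 peaks, all inside Tnfrsf8, where the WT 8 h row holds 8 peaks over both genes.

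Tnfrsf14 encodes HVEM, a receptor of LIGHT and of BTLA, and had a peak in all 12 lists. Its p65 values were 20.2, 85.2 and 106.2 tags in WT cells and 51.2, 101.7 and 105.5 in KO cells. With SOCS1 they were 33.2, 39.5 and 58.9 in WT cells and 80.1, 45.6 and 52.8 in KO cells. The LPS p65 maxima came from 1 site 5231 bp before the start, chr4:154932983-154933634, called by p65 in the 4 LPS lists and in no control list and by SOCS1 in the same 4 conditions. Another site 1280 bp before the start held the strongest control peak of both antibodies in both genotypes. No WT control p65 peak was left with 8-fold local enrichment.

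Tnfrsf12a encodes the TWEAK receptor. Its p65 values were 20.8, 67.2 and 14.6 tags in WT cells and 55.8, 86.8 and 35.0 in KO cells, highest at 30 min in both. The WT values came from a different site in each list, 160, 3693 and 1534 bp past the start. The KO values all came from chr17:23673376-23674082, where p65 was called in WT cells at 30 min alone. At 8-fold local enrichment p65 was left in neither WT control nor in the 8 h lists, and SOCS1 in no KO list. As reported, SOCS1 gave no peak in WT control cells, then 87.7 and 38.9, and 70.8, 68.1 and 25.1 in KO cells. The most often called site, in 9 lists, was chr17:23673376-23674082, which is 121 bp from the start of the neighbouring gene Hcfc1r1 and 3720 bp past that of Tnfrsf12a, so the gene it belongs to cannot be told from position.

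Tnfrsf9 encodes CD137, the receptor of the Tnfsf9 product. It had 15.6, 36.0 and 29.3 p65 tags in WT cells and 29.0, 39.1 and 66.8 in KO cells, the last being 36.4 with 8-fold local enrichment, at which no p65 peak was left in WT control and WT 8 h cells. SOCS1 gave 18.8 and 36.9 in WT control and 30 min cells and no peak at 8 h, and 95.6, 31.8 and 18.0 in KO cells. The p65 values other than WT control came from chr4:150913895-150914590, outside the gene, 4321 bp from the Park7 start and 5913 bp from that of Tnfrsf9. The WT control SOCS1 peak lay 334 bp from the Park7 start. Which gene these peaks belong to cannot be told from position. The p65 values in the Tnfrsf9 window after LPS, 29.3 to 66.8 tags, lay below those of Tnfsf9, 68.9 to 189.1.

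Tnfrsf1a, the gene of TNF receptor 1 with its death domain, had p65 in 5 lists, 15.9 to 42.1 tags, and lacked a peak in WT control cells. SOCS1 was called there in 5 lists, 16.8 to 86.3 tags, the highest in KO control cells. Tnfrsf23 and Tnfrsf22, which encode decoy receptors of TRAIL, and the adjacent Tnfrsf26 had p65 peaks in each of the 6 lists. The range was 26.0 to 76.6 tags for Tnfrsf23 and 17.1 to 69.8 for the other two, which share their strongest peak. The start of Tnfrsf23 (chr7:143685700-143686248) was among the most often called sites of the family, in 5 lists of each antibody. Tnfrsf11a (RANK, the receptor that RANKL uses on osteoclast precursors) had peaks in all 12 lists, 14.3 to 55.2 p65 tags and 14.2 to 46.1 SOCS1 tags, although its ligand gene had none. Tnfrsf21 (death receptor 6) had p65 in 6 lists, 16.1 to 35.9 tags, and Tnfrsf13b (TACI, a receptor of BAFF and APRIL) in 6, 17.6 to 56.4.

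The remaining receptors had p65 peaks in at most 3 lists, none over 26.6 tags. Tnfrsf10b, the TRAIL death receptor, had p65 at 24.8 tags in WT cells and 26.6 in KO cells at 30 min and 17.3 in KO cells at 8 h, and no SOCS1 peak. Tnfrsf17 (BCMA) had p65 at 30 min alone, 14.6 and 13.6 tags, at a site nearer to the start of Snx29 (631 bp) than to its own. Its SOCS1 values were 8.72 and 12.6 tags in WT cells after LPS and 29.8 in KO control cells. Tnfrsf25 (death receptor 3) had p65 in the 30 min lists alone, at most 12.2 tags, and a SOCS1 peak of 21.4 tags in KO cells at 30 min. Its strongest peaks lay at sites 8111 and 9032 bp past its start, nearer to the start of Espn. The p65 peak at its own start had 6.78 tags in KO cells at 30 min. Tnfrsf18 (GITR) had 1 p65 peak, 20.6 tags in KO cells at 30 min, and SOCS1 at 55.9 and 19.8 tags in KO control and 30 min cells and 14.2 in WT cells at 8 h. Tnfrsf13c (the BAFF receptor) had 9.01 p65 tags in WT cells at 30 min, and Tnfrsf19 had 20.5 and 10.0 in KO control and 30 min cells.

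Of the 15 genes without a p65 peak in WT control cells, 9 had one at 30 min (all genes 46.4%), namely Tnfsf4, Tnfsf13b, Tnfsf14, Tnfsf15, Tnfrsf1a, Tnfrsf10b, Tnfrsf13c, Tnfrsf17 and Tnfrsf25. At 8 h the number was 6 of 15 (38.9%), the same 4 ligands with Tnfrsf1a and Tnfsf10. Of the 26 genes with a WT peak at 30 min, 4 had none at 8 h (15.3%), and all 4 were receptors: Tnfrsf10b, Tnfrsf13c, Tnfrsf17 and Tnfrsf25. No gene of the family with a WT control peak lacked one at 30 min (0 of 17, interval up to 19.5%, all genes 6.29%) or at 8 h (0 of 17, all genes 8.97%). In KO cells 7 of 11 genes without a control peak had one at 30 min (48.7%) and 4 of 11 at 8 h (38.2%), and 6 of 28 with a 30 min peak had none at 8 h (18.6%). Of the 21 KO control genes, all kept a peak at 30 min (background of loss 4.65%) and 3 had none at 8 h (13.6%), Tnfrsf19, Tnfrsf1b and Tnfsf14. The exact interval of each share in this paragraph includes the background beside it.

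As reported, all 17 genes with a p65 peak in WT control cells had one in KO control cells, where 34.7% of all genes with a WT peak lacked one, and that value lies above the upper limit of 19.5% for 0 of 17 and of 24.7% for 0 of 13 loci. With 8-fold local enrichment 2 of 8 such genes, Tnfrsf22 and Tnfrsf26 at 1 locus, lacked a KO control peak (3.19 to 65.1%, all genes 52.9%), and the interval included the background. Lacking one were also 1 of 14 in a 2 kb window (Tnfrsf22, all genes 41.1%) and 1 of 17 with gene ends in place of spans (Tnfrsf13b, 38.7%). A gene in both lists need not share a site: 11 of 26 WT control p65 sites had a KO control peak (gene-linked sites 24.4%). In the KO control list 91.4% of p65 peaks sat over IgG at its floor. The KO control list added Tnfrsf19, Tnfrsf1a, Tnfsf14 and Tnfsf15 (4 of 21, all genes 40.5%). At 30 min 25 of the genes had a p65 peak in both genotypes (all genes 59.3%), with Tnfrsf13c in WT cells alone (1 of 26, 4.13%) and Tnfrsf18, Tnfrsf19 and Tnfsf10 in KO cells alone (3 of 28, 9.31%). At 8 h the KO list added Tnfrsf10b (1 of 22, 10.9%).

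At 8 h 21 of the genes had a p65 peak in both genotypes (all genes 49.4%) and 11 had a SOCS1 peak in both (32.6%). In WT cells 7 of 17 genes with a SOCS1 control peak had none at 8 h (all genes 25.6%). These were Tnfrsf9, Tnfrsf13b, Tnfrsf22, Tnfrsf26, Tnfsf8, Tnfsf14 and Tnfsf18. Tnfrsf22 and Tnfrsf26 share their strongest SOCS1 peak in the WT control and KO 8 h lists and are not independent counts. All 7 genes had a SOCS1 peak in the KO 8 h list, but the share of all genes doing so is not given here. The same 7 were the genes with a SOCS1 peak at 8 h in KO cells alone (7 of 18, all genes 26.9%). In the other direction, 5 of 16 had a SOCS1 peak at 8 h in WT cells alone (15.6%), Tnfrsf17, Tnfrsf18, Tnfrsf1a, Tnfrsf21 and Tnfsf10. Site by site, 8 of 28 SOCS1 sites of the family in WT cells at 8 h had a KO SOCS1 peak, 28.6% (13.2 to 48.7%), against 48.5% of gene-linked sites, which is just inside the interval. In KO control cells SOCS1 was called at 6 genes without a WT control peak (6 of 22, all genes 47.8%), Tnfrsf12a, Tnfrsf17, Tnfrsf18, Tnfsf13b, Tnfsf4 and Tnfsf9, and this is the list with most of its peaks over IgG at the floor. In WT cells the SOCS1 peaks gained over control were 4 of 15 at 30 min (30.5%) and 6 of 15 at 8 h (21.4%), with Tnfsf9, Tnfsf15, Tnfrsf12a and Tnfrsf17 in both. The exact interval of each SOCS1 share in this paragraph includes its background.

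Overlap of a p65 and a SOCS1 peak by at least 1 bp was found at 9 of the 32 genes in WT control cells (all genes 11.8%), 15 after 30 min (35.2%) and 7 after 8 h of LPS (30.7%). KO cells gave 10 (19.1%), 17 (40.3%) and 13 (32.0%). In percent of the family the WT values were 28.1% (13.7 to 46.7%), 46.9% and 21.9% (9.28 to 40.0%), so the WT control interval lies above its background and the 8 h interval includes it. The WT control call was lost in 7 of 27 loci (11.1 to 46.3%), with 8-fold local enrichment (3 genes, 1.98 to 25.0%, all genes 5.93%) and with peak centres within 100 bp (5 genes, 5.28 to 32.8%, all genes 7.07%). Tnfsf9, Tnfrsf8, Tnfrsf14 and Tnfrsf23 had such an overlap in all 4 LPS conditions (4 of 32, all genes 14.6%). A p65 peak in all 4 LPS lists was found at 20 of 32 genes (46.4%), 9 of 12 ligands and 11 of 20 receptors. The other WT counts with 8-fold local enrichment were 9 at 30 min (all genes 25.2%) and 2 at 8 h (20.1%), and the KO control and 8 h counts were 4 each (10.0% and 15.1%). With equal list length they were 9 and 3 in WT cells at 30 min (18.1%) and 8 h (17.4%) and 11 in KO cells at 30 min (18.4%). With peak centres within 100 bp they were 3 in KO control (9.43%) and 10 in KO 30 min cells (26.3%).

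Merged over the 12 lists, the peaks of the family made 170 sites out of 519 peaks, of which 303 were p65 peaks and 216 SOCS1 peaks. Of the sites, 92 lay inside a gene of the family and 78 outside, and 24 lay within 1 kb of a listed start of the family. For 47 sites the nearest listed start belonged to another gene. The sites resembled gene-linked sites at large: 45.3% were in 1 list (background 50.1%), 10.6% in 8 or more lists (7.70%), 39.4% had peaks of both antibodies (36.0%) and 25.3% of SOCS1 alone (24.6%). Among p65 sites at 30 min, 22.9% (13.7 to 34.4%) in WT cells and 28.8% (19.2 to 40.0%) in KO cells had a control p65 peak, against 15.0% and 15.9% of gene-linked sites, and only the KO interval lay above its background. Of the p65 sites in WT control cells, 42.3% (23.4 to 63.1%) recurred in KO control cells, against 24.4%, which is inside the interval.

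**Figure D5:**
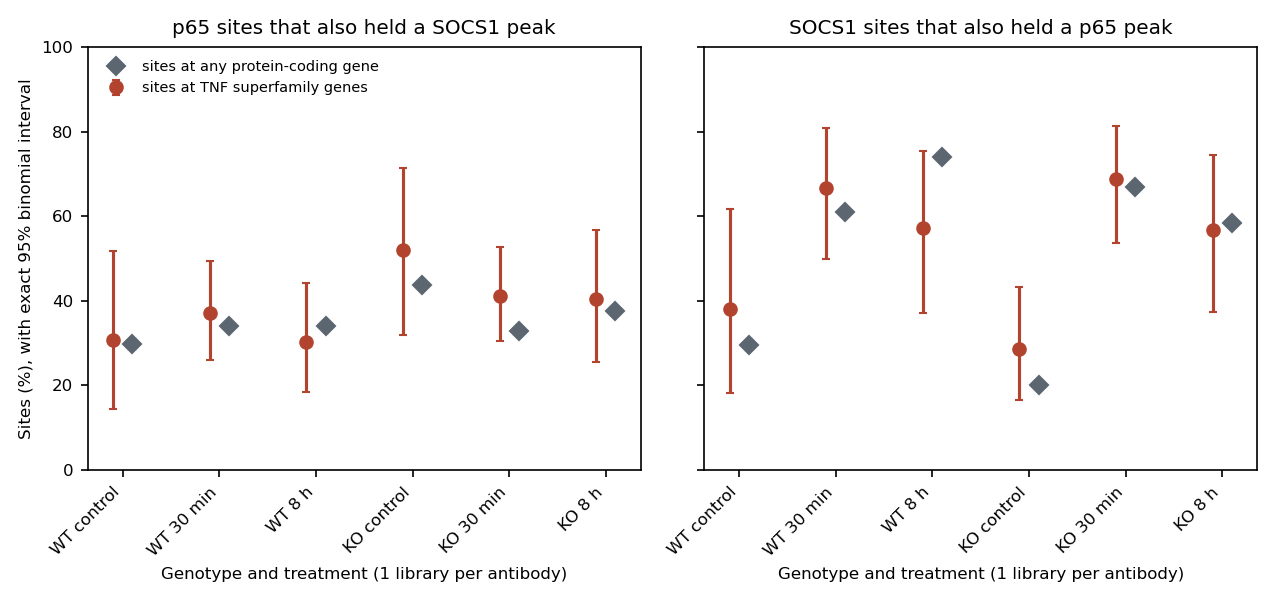
Percent of p65 sites with a SOCS1 peak (left) and of SOCS1 sites with a p65 peak (right) in the same genotype and treatment, for sites at the TNF superfamily genes (red, exact 95% binomial intervals for counting error) and for sites at any protein-coding gene (grey diamonds), 1 library per antibody and condition. Each grey diamond lies within the red interval, for example 34.1% against 37.1% for p65 sites in WT cells at 30 min.

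A list of 15 superfamily genes with other symbols had p65 peaks near 7 genes in the WT control list (46.7%, all genes 32.7%), 9 after 30 min (all genes 61.9%) and 8 after 8 h (53.3%, 55.9%). In KO cells the list gave 8 genes before treatment (53.3%, all genes 35.8%), 8 at 30 min (53.3%, 65.4%) and 7 at 8 h (46.7%, 55.5%). Neighbours in this list such as Tnf and Lta are not independent counts. With 15 genes and no interval given, no difference from all genes is read from these shares. Tnf, the cytokine that names the family, and its neighbour Lta share 1 strongest peak with 54.6, 250.3 and 257.3 p65 tags in WT cells and 34.1, 328.7 and 267.8 in KO cells. That is above the 189.1 tags of Tnfsf9, the highest of the 32 genes. Cd40, a costimulatory receptor of macrophages, had no WT control peak, then 111.1 and 115.2 tags, and 15.9, 154.6 and 115.9 in KO cells. No p65 peak was called in any LPS list at Cd40lg, Fasl, Eda, Edar, Eda2r and Ngfr. The share of all genes without one is not given here, so this is a description only.

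A list of 33 genes of TNF receptor signalling inside the cell had a p65 peak near most of its members in each list. It includes inhibitors of the signal such as Tnip1 and NF-κB subunits such as Nfkb2. The WT p65 lists covered 25 of 33 before treatment (75.8%, all genes 32.7%), all 33 at 30 min (61.9%) and 31 at 8 h (93.9%, 55.9%). The KO lists covered 25, 32 and 30, against 35.8%, 65.4% and 55.5% of all genes. The highest p65 values were at Tnip1 (532.7 tags), an inhibitor of NF-κB signalling that binds A20, Nfkb2 (373.2), the p100 and p52 subunit, and Traf2 (323.7), the adaptor of most of the receptors above. Unlike Tnip1 and Nfkb2, Traf2 was higher at 8 h than at 30 min in both genotypes, which was also true of other genes in the list. It had 81.8 tags at 30 min and 272.4 at 8 h in WT cells and 158.7 and 323.7 in KO cells. Overlap of p65 and SOCS1 in all 4 LPS conditions was found at 13 of these 33 genes, against 4 of the 32 ligands and receptors and 14.6% of all genes. Both lists were chosen with earlier results of these data known, so their shares are a description only.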

How the data were processed

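CUT&RUN peak lists of p65 and SOCS1 were analysed in 12 groups of 1 library each. Of 20 labelled samples the other 8 are 6 IgG libraries, which act here only through the deposited calls, and 2 internal controls, not used here. The submitters' processing notes name cutadapt, Bowtie2 2.4.1, HOMER 4.11 and mm10. Per the file headers, findPeaks called each list in factor mode with the IgG library matched by genotype and treatment as control, with an FDR of 0.001, at least 4-fold over IgG and over the surrounding 10 kb and a Poisson p of 0.0001. p65 and SOCS1 lists of a condition share that IgG library.

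The authors' signal is a tag count scaled to 10000000 tags (10 M). Their deposited score is not scaled to depth and ranked peaks within a list. The authors gave each fold over IgG and over local background as a ratio. The deposited p-value is an unadjusted Poisson p, and a deposited fraction describes how focused a peak is; neither was tested on. IgG tags are the authors' signal with a floor of 0.5. A spike-in named in the labels was not used here.

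Peaks were linked to gene spans of the GRCm38.p6 table in Python 3.11.15 (pandas 2.3.3, scipy 1.17.1), checked first on simulated lists. The table has spans without exons, so exonic and intronic sites were not separated. Intervals are exact binomial (Clopper-Pearson) or exact Poisson at 95%. Every gene of the family is named. Values in each list are given for the 10 with the highest p65 and the 6 with the highest SOCS1 value, and of the other lists the top 3 by p65 and the genes without p65 after LPS are named. Members, gene lists and tests were chosen with earlier results of these data known. Alternatives were a 2 kb window, gene ends in place of spans, 8-fold local enrichment, equal list length, centres within 100 bp and, chosen after seeing the data, overlapping windows counted once.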

Additional observations from a re-analysis of the deposited data

Results flagged for a closer look

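Results are listed here where a peak appeared after LPS in 1 genotype and a control peak was no longer called in the other, and in no case was the difference tested. For p65 at 8 h, Tnfsf14 gained a peak of 21.7 tags per 10 M in WT cells and lost the KO control peak of 18.2. For SOCS1, Tnfrsf13b lost its WT control peak of 26.7 tags by 30 min and 8 h and gained peaks of 21.4 and 26.4 in KO cells. Tnfrsf17 gained SOCS1 peaks of 8.72 tags at 30 min and 12.6 at 8 h in WT cells and lost the KO control peak of 29.8. Tnfrsf18 gained a SOCS1 peak of 14.2 tags at 8 h in WT cells and lost the KO control peak of 55.9. Lost and gained peaks of a gene need not lie at the same site, and the KO control SOCS1 list has most of its peaks over IgG at the floor.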

How the results depend on the processing

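Counts of genes with a peak or an overlap stayed within 1.5 times under a 2 kb window, gene ends in place of spans and overlapping windows counted once. With 8-fold local enrichment the p65 counts were 8 (WT control), 10 (WT 8 h) and 8 (KO 8 h), the SOCS1 counts 10 (WT control) and 9 (WT 8 h), and the overlaps 3 (WT control), 9 (WT 30 min), 2 (WT 8 h), 4 (KO control) and 4 (KO 8 h). With equal list length the p65 counts after LPS were 17 and 10 in WT and 15 and 14 in KO cells, the SOCS1 count 8 (WT 8 h), and the overlaps 9 (WT 30 min), 3 (WT 8 h) and 11 (KO 30 min). With centres within 100 bp the overlaps were 5 (WT control), 3 (KO control) and 10 (KO 30 min). Except where a shorter list or stricter filter itself lowers a count, the cause was not tested. Of 121 reported peak values, 80 were left at 8-fold, 72 of them within the counting interval of the reported value, and 111 with equal list length, all within it. No paired analysis was possible because each group has 1 library. For the same reason no replicate could be left out and the spread between cultures is unknown. Depth limits the lists through a score threshold of 7 to 12 unscaled tags, depending on the list.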
